A study of Homo sapiens with 8 samples.

Results

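The DNA replication genes described here are 35 genes whose proteins copy the genome in S phase or support that copying. They were chosen by name and not by a rule on measured values, but with earlier results of these data known. They are 35 of the 19775 genes that had a probe set with a single gene symbol on the array, and 35 of the 12300 genes bright enough to be tested, so no member was lost to the filter on dim signal. The samples were side population (SP) cells and main population (MP) cells sorted from each of 4 established human lung cancer lines. SP cells pump out the DNA dye Hoechst 33342 through transporters such as ABCG2, and MP cells retain it. A549 and H460 carry mutant K-Ras, and H1650 and H1975 carry mutant EGFR. RNA of each population of each line was hybridised once, to 8 Affymetrix Human Genome U133 Plus 2.0 arrays, after dye labelling and sorting of viable cells and with no drug or time course. The 2 arrays of a line are its 2 sorted fractions, not named replicate cultures, so each p-value below measures only the spread between these arrays. Values are log2 signals, in which 1 unit is a 2-fold difference. Levels are not compared between genes, since each probe set has its own brightness.

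Replication starts when the origin recognition complex (ORC), CDC6 and CDT1 load the ring of MCM2 to MCM7 onto DNA before S phase. The CDC7 and DBF4 kinase and MCM10 then switch the ring on, and CDC45 and the GINS proteins join it to form the active helicase. The clamp PCNA is placed by the RFC loader, the polymerases and primase copy the strands, FEN1 and LIG1 join the Okazaki fragments, and ribonucleotide reductase (RRM1, RRM2) and thymidylate synthase (TYMS) supply the nucleotides. In cycling cells many of these genes are transcribed together around the start of S phase, in large part through E2F factors.

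Promoter sequences are shown because the members are known as a group that E2F factors act on. RefSeq (GRCh38.p14) promoter windows of 300 bases, 250 before and 50 after the annotated start, were matched for 32 of the 35 genes; MCM4, MCM5 and GINS4 were not matched. One of the 8-letter forms TTTCCCGC, TTTCGCGC, TTTGCCGC and TTTGGCGC, on either strand, stood in 17 of 32 member windows (53.1%) and in 908 of the 27303 windows of all genes (3.33%). The letters CCAAT, bound by NF-Y, stood in 17 of 32 (53.1%) against 35.7% of all windows. The letters TTTGAA, the cell cycle homology region of many G2 and mitosis genes, stood in 2 of 32 (6.25%) against 15.4%. The last 100 bases before the start are printed for MCM6, CDT1, PCNA, RFC3 and TYMS, which hold an E2F form there, and for RRM2 and DBF4, which hold none in the whole window. These 7 genes include the largest and the smallest difference between lines and the member called in a contrast of SP and MP. They lie at chr2:135876444-135876543 on the minus strand for MCM6, chr16:88803689-88803788 on the plus strand for CDT1, chr20:5126623-5126722 on the minus strand for PCNA, chr13:33818049-33818148 on the plus strand for RFC3, chr18:657553-657652 on the plus strand for TYMS, chr2:10122639-10122738 on the plus strand for RRM2 and chr7:87876393-87876492 on the plus strand for DBF4. Capitals mark the E2F forms and CCAAT on either strand, and in MCM6 a pair of E2F forms overlaps in 1 run.
MCM6: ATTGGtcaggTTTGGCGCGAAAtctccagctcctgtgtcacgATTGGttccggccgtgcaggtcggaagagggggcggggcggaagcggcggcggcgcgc
CDT1: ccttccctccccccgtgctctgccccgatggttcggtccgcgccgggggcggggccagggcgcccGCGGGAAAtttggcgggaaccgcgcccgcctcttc
PCNA: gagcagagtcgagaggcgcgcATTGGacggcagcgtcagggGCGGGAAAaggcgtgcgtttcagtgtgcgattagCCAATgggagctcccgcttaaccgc
RFC3: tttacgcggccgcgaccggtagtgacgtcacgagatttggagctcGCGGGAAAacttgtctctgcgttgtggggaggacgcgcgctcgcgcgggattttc
TYMS: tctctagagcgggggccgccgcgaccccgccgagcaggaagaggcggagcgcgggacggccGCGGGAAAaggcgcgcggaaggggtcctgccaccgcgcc
RRM2: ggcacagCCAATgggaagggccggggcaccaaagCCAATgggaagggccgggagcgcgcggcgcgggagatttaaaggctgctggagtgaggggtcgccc
DBF4: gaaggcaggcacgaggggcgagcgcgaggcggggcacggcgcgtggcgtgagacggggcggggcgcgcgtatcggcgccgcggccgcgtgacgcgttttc
RRM2 has a repeated stretch with CCAAT and no E2F form. DBF4 has neither set of letters in this stretch, and its 1 TTTGAA match begins 3 bases before the start. These matches describe the sequence only, and no binding was measured.

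The arrays were of similar brightness, with median log2 signals between 5.92 and 6.29 over all probe sets. The 3' minus 5' difference of the ACTB control was 0.23 to 0.65 and that of GAPDH -0.18 to -0.03. The SP and MP deviations of 1 line from the population means correlated over genes (r of 0.887 to 0.940), and each SP array was closest to the MP array of its own line. The keratins KRT8, KRT18 and KRT19, which mark epithelium, were at 11.69 or above on all 8 arrays, but EPCAM spanned 5.25 to 13.3 and CDH1 0.63 to 13.7, so these were low on some arrays. Of the markers of other cells, 1 of 4 leukocyte, 1 of 3 endothelial and 2 of 3 fibroblast genes passed the filter. ABCG2, which the study used as a control gene for the SP phenotype, was 12.22 in SP and 11.14 in MP cells of A549, 12.71 in SP and 12.35 in MP cells of H460, and 10.06 in SP and 8.89 in MP cells of H1975. In H1650 it was 10.75 in the array labelled SP and 11.45 in the array labelled MP, opposite to the other lines. The labels were kept, and a direction in H1650 holds only as far as they are right.

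Levels differed between the 4 lines for 23 of the 35 replication genes, no larger a share than over all genes. H1975 had low RRM2, CDC6, LIG1, RFC3 and POLD1, A549 had high GINS2, POLA1, CDC6, FEN1 and GINS4, and H1650 had low RRM1, POLA1, GINS4 and MCM7. The F test over the 4 lines (limma, Benjamini-Hochberg adjusted p under 0.05) called these 23 members, against 76.3% of all 12300 genes. The fold between the highest and the lowest line ranged from 1.13 for MCM6 to 4.24 for RRM2, with a median of 1.75, and 13 members reached 2-fold. The 12 members not called were MCM4, MCM6, CDC45, CDT1, CDC7, DBF4, PCNA, RFC2, RFC4, POLA2, PRIM1 and POLE2. In such bulk samples, fewer cells in S phase and less RNA per cell cannot be told apart.

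**Figure D1:**
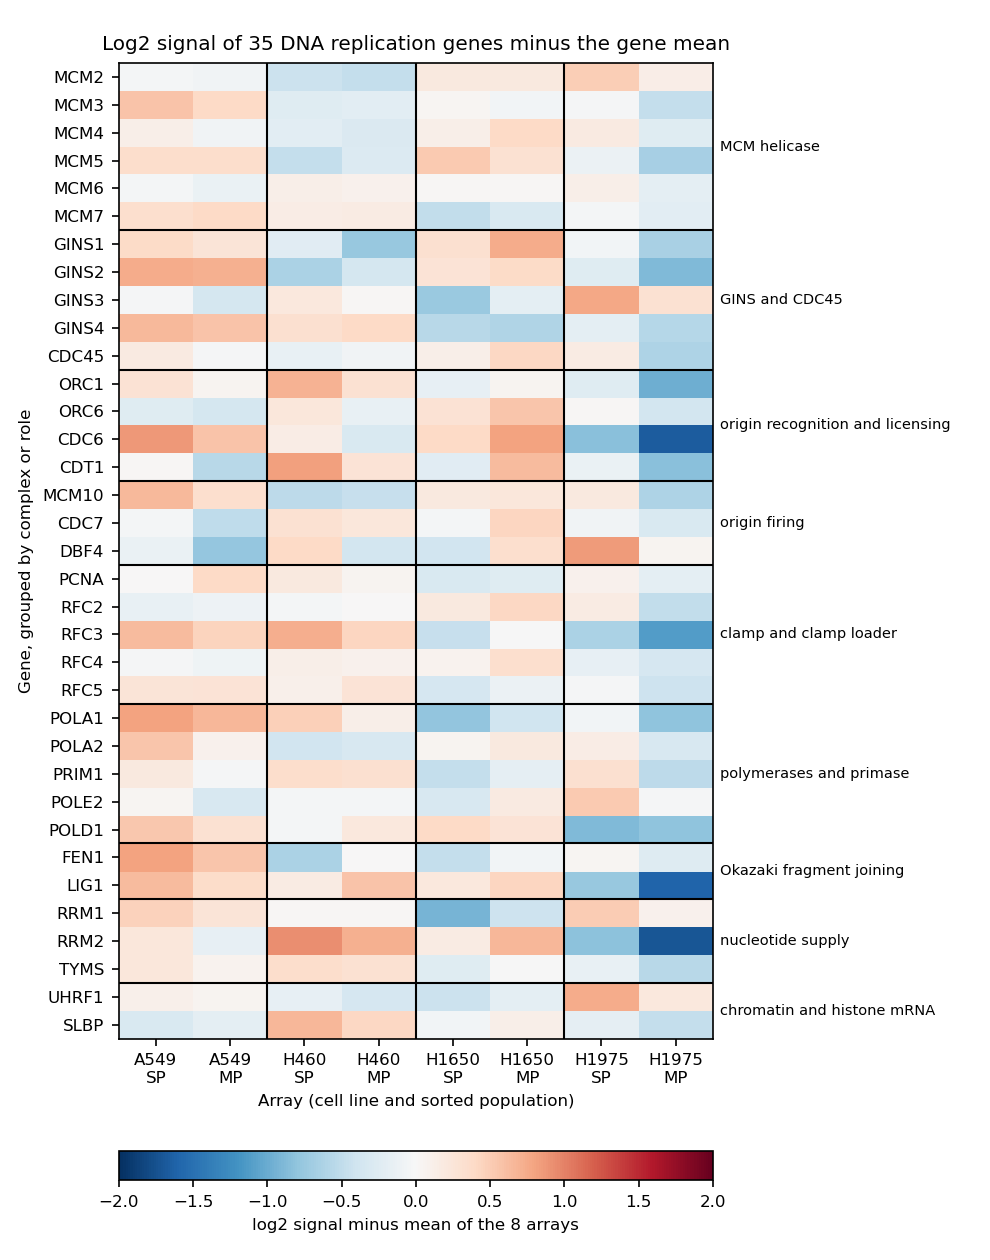
Log2 signal of each of the 35 genes (rows, grouped by complex or role) on each of the 8 arrays (columns, SP left of MP within each line) minus the mean of that gene over the 8 arrays; red is above and blue below that mean. The H1975 MP column holds the darkest blue cells, at RRM2, CDC6 and LIG1, and the MCM6 row is nearly blank.

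In the MCM ring, MCM5 had the widest and MCM6 the narrowest difference between lines. MCM5 read 11.29, 10.47, 11.47 and 10.83 in the SP arrays of A549, H460, H1650 and H1975, and 11.30, 10.68, 11.25 and 10.29 in the MP arrays. It was thus high in A549 and H1650 and low in H460 and H1975, with no overlap between these pairs of lines, and each of the 4 contrasts of a line with the other 3 was called (log2 0.46 and 0.55 for the high lines, -0.50 and -0.52 for the low ones, adjusted p from 0.0170 to 0.0395). MCM6 was 12.91, 13.05, 12.97 and 13.05 in the SP arrays of A549, H460, H1650 and H1975 and 12.82, 13.02, 12.97 and 12.75 in the MP arrays, so that the 2 H1975 values spanned those of A549 and H1650, and no line was called. Among the other ring subunits, MCM2 was lower in H460 (-0.60, adjusted p = 0.00229) and higher in H1975 (0.42, adjusted p = 0.0113). MCM3 was higher in A549 (0.64) and lower in H1975 (-0.33), and MCM7 was higher in A549 (0.49) and lower in H1650 (-0.52). Subunits of 1 ring therefore stood in different orders across the lines. The SP over MP log2 ratio was small in 3 lines, with medians over the 6 genes of 0.06 in A549, 0.01 in H460 and -0.002 in H1650. In H1975 it was 0.39, and all 6 were higher in SP there, from 0.18 for MCM7 to 0.54 for MCM5. The second probe set of MCM7, almost as bright, gave 0.74 in H1975.

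GINS and CDC45, which complete the helicase, differed between lines by up to 2.44-fold (GINS2), and least for CDC45. GINS2 was 11.47, 10.09, 10.997 and 10.49 in the SP arrays of A549, H460, H1650 and H1975 and 11.43, 10.38, 11.11 and 9.84 in the MP arrays. Both A549 arrays lay above all others, and the contrast of A549 was 0.97 (SE 0.18, limma adjusted p = 0.00394). GINS2 was lower in H460 (-0.66) and H1975 (-0.75). CDC45 was 9.76, 9.43, 9.69 and 9.74 in the SP arrays of the same lines and 9.56, 9.51, 9.99 and 8.96 in the MP arrays, so that 7 of its 8 values lay between 9.43 and 9.99, below which lay H1975 MP, and no line was called. The 4 GINS subunits, which form 1 tetramer, did not share an order of lines. GINS1 was lower in H460 and higher in H1650 (0.70), GINS3 was lower in H1650 and higher in H1975 (0.72), and GINS4 was higher in A549 (0.81) and H460 and lower in H1650 (-0.77) and H1975. The median SP over MP ratios were 0.14 (A549), -0.07 (H460), -0.30 (H1650) and 0.60 (H1975), and in H1975 CDC45 (0.78), GINS2 (0.65) and GINS1 (0.60) passed 1.5-fold.

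For origin recognition and licensing, CDC6, which helps ORC to load the ring, was the member most different between lines after RRM2 (3.91-fold). CDC6 was 11.61, 10.89, 11.14 and 9.91 in the SP arrays of A549, H460, H1650 and H1975, and 11.31, 10.43, 11.54 and 9.08 in the MP arrays. Both H1975 arrays were below the other 6, and the contrast of H1975 was -1.66 (SE 0.21, limma adjusted p = 0.000544). CDC6 was higher in A549 (0.96) and in H1650 (0.80). ORC6, a subunit of ORC, was 11.24, 11.71, 11.78 and 11.52 in the SP arrays of the same lines and 11.15, 11.35, 12.04 and 11.12 in the MP arrays, and was higher in H1650 (0.57, limma adjusted p = 0.0119). ORC1, another subunit, was higher in H460 (0.66) and lower in H1975 (-0.81). CDT1, the partner of CDC6 in licensing, was 9.64, 10.44, 9.39 and 9.49 in the SP arrays and 9.07, 9.90, 10.25 and 8.78 in the MP arrays of these lines. Its line averages were not called apart (F test adjusted p = 0.0997), and its SP and MP values in H1650 differed by -0.86, against a range of 1.04 between the line averages. All 4 licensing genes were higher in SP in A549, H460 and H1975 and lower in SP in H1650. Their median ratios were 0.27, 0.43 and 0.73 in those 3 lines and -0.33 in H1650.

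Among the genes of origin firing, MCM10, which is needed to activate the helicase, was 11.10, 9.92, 10.64 and 10.64 in the SP arrays of A549, H460, H1650 and H1975 and 10.79, 9.98, 10.67 and 9.83 in the MP arrays. It was higher in A549 (0.66) and lower in H460 (-0.66, limma adjusted p of 0.0210 and 0.0182). CDC7, the kinase, was 9.74, 10.09, 9.74 and 9.71 in the SP arrays of the same lines and 9.26, 10.00, 10.20 and 9.46 in the MP arrays, and no line contrast was called. DBF4, its activating subunit, was 10.65, 11.18, 10.40 and 11.64 in the SP arrays and 10.02, 10.42, 11.13 and 10.84 in the MP arrays. The SP array of H1650 was the lowest of the SP arrays for DBF4 and its MP array the highest of the MP arrays, while the line averages were not called apart (F test adjusted p = 0.184). The SP over MP log2 ratios of DBF4 were 0.64 (A549), 0.75 (H460), -0.73 (H1650) and 0.80 (H1975), at least 1.5-fold in each line and with the opposite sign in H1650. Over the 3 firing genes the median ratios were 0.48, 0.09, -0.46 and 0.80 in these lines.

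Among the 5 members of the clamp and its loader, RFC3 differed most between lines. RFC3, a loader subunit, was 11.77, 11.87, 10.67 and 10.50 in the SP arrays of A549, H460, H1650 and H1975 and 11.59, 11.57, 11.13 and 10.02 in the MP arrays. All 4 arrays of A549 and H460 lay above those of H1650 and H1975, and the contrast of H1975 was -1.17 (SE 0.18, limma adjusted p = 0.00116). RFC4 was 11.81, 11.95, 11.91 and 11.67 in the SP arrays of the same lines and 11.75, 11.92, 12.17 and 11.50 in the MP arrays, a range of 1.37-fold, and was lower in H1975 (-0.33, adjusted p = 0.0324). PCNA, the clamp, was lower in H1650 (-0.36, adjusted p = 0.0426). Neither RFC4 nor PCNA passed the F test. RFC5 passed it (adjusted p = 0.0478) but no single contrast, and RFC2 passed none. PCNA was lower in SP in A549 (-0.39), the lowest ratio of any member in that line. The median ratios over the 5 genes were -0.02 (A549), 0.03 (H460), -0.23 (H1650) and 0.39 (H1975).

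Among the polymerase and primase members, POLA1, the catalytic subunit of the priming polymerase alpha, differed most between lines. POLA1 was 10.47, 10.14, 8.88 and 9.61 in the SP arrays of A549, H460, H1650 and H1975 and 10.33, 9.79, 9.27 and 8.87 in the MP arrays. Both A549 arrays lay above all others, with a contrast of 0.98 (SE 0.21, limma adjusted p = 0.00776), and H1650 was lower (-0.80). POLE2, a subunit of the leading strand polymerase epsilon, was 10.66, 10.60, 10.31 and 11.15 in the SP arrays of the same lines and 10.32, 10.59, 10.81 and 10.61 in the MP arrays, with no call in any line. POLD1, the catalytic subunit of the lagging strand polymerase delta, was 8.80 in SP and 8.88 in MP cells of H1975 and between 9.64 and 10.23 on the other 6 arrays. Its contrast in H1975 was -1.12 (SE 0.14, limma adjusted p = 0.000504), and it was higher in A549 (0.57) and H1650 (0.44). POLA2 was lower in H460 (-0.47, limma adjusted p = 0.0483), though not called by the F test, and PRIM1 passed no test. The median ratios of SP over MP were 0.24, 0.01, -0.28 and 0.54 in A549, H460, H1650 and H1975. POLD1 was the single member not higher in SP in H1975 (-0.08).

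The Okazaki fragment genes stood out in different lines. LIG1, the ligase that seals the fragments, was 10.25, 9.78, 9.83 and 8.85 in the SP arrays of A549, H460, H1650 and H1975 and 9.98, 10.18, 10.05 and 8.01 in the MP arrays. Both H1975 arrays lay below the rest, with a contrast of -1.58 (SE 0.24, limma adjusted p = 0.00114). FEN1, the flap nuclease, was 12.90, 11.48, 11.63 and 12.14 in the SP arrays of the same lines and 12.66, 12.11, 12.05 and 11.85 in the MP arrays, and was higher in A549 (0.91, adjusted p = 0.00699). The SP over MP log2 ratio was negative for both in H460 (-0.64 for FEN1 and -0.40 for LIG1) and in H1650 (-0.42 and -0.22). It was positive in A549 (0.24 and 0.27) and H1975 (0.30 and 0.84). The sign of FEN1 in H460 depended on the probe set, since its second, dimmer set gave 0.14 there.

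Of the nucleotide supply genes, RRM2, the regulated subunit of ribonucleotide reductase, was 12.82, 13.52, 12.75 and 11.76 in the SP arrays of A549, H460, H1650 and H1975 and 12.43, 13.29, 13.26 and 10.89 in the MP arrays. Both H1975 arrays lay below the other 6 and the contrast of H1975 was -1.69 (SE 0.22, limma adjusted p = 0.000627), while H460 was higher (1.09, adjusted p = 0.00494). RRM1, the large subunit of the same enzyme, was lower in H1650 instead (-0.90, SE 0.16, adjusted p = 0.00297) and was not called in H1975 (0.40, adjusted p = 0.0786). The 2 subunits of 1 enzyme thus had their low values in different lines. TYMS was 13.32, 13.45, 12.85 and 12.94 in the SP arrays of the same lines and 13.17, 13.40, 13.09 and 12.54 in the MP arrays, higher in H460 (0.44) and lower in H1975 (-0.48). All 3 genes were higher in SP in A549, H460 and H1975 and lower in SP in H1650, with median ratios of 0.20, 0.05, 0.43 and -0.51 in that order of lines.

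UHRF1, which reads hemimethylated DNA behind the fork, was 12.01, 11.73, 11.47 and 12.65 in the SP arrays of A549, H460, H1650 and H1975 and 11.95, 11.56, 11.71 and 12.12 in the MP arrays. Both H1975 arrays lay above the rest (contrast 0.64, SE 0.14, limma adjusted p = 0.00675), and H1650 was lower (-0.41). SLBP, which binds the stem-loop of histone mRNA, was 12.11, 13.09, 12.37 and 12.24 in the SP arrays of the same lines and 12.21, 12.84, 12.53 and 11.95 in the MP arrays. It was higher in H460 (0.73, SE 0.11, limma adjusted p = 0.00141) and lower in A549 and H1975. Median ratios of SP over MP for this pair were -0.02, 0.21, -0.20 and 0.41 in the 4 lines.

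Counted by line, A549 had 11 members higher and 1 lower (all genes, 22.4% and 21.3%). The higher ones were MCM3, MCM5, MCM7, GINS2, GINS4, CDC6, MCM10, RFC3, POLA1, POLD1 and FEN1, and the lower one was SLBP. Without the A549 SP array 4 were called higher and without the A549 MP array 2, and every A549 call was lost when 1 or other of these was left out. The lower count was 0 without an A549 array, an H460 array or H1975 SP, 2 without H1650 MP or H1975 MP, and 6 without H1650 SP. SLBP was lost without H1650 MP too, so the 2 members lower there were others. With arrays scaled to the same median, which shifted the level of all genes by -0.11 in A549 and 0.17 in H460, 7 were higher and 2 lower in A549. H460 had 6 higher (GINS4, ORC1, RFC3, RRM2, TYMS, SLBP) and 6 lower (MCM2, MCM5, GINS1, GINS2, MCM10, POLA2), against 24.2% and 26.8% of all genes. With that scaling it had 13 higher and 0 lower. The shares of all genes are for the deposited scaling and all 8 arrays. They were not counted for that scaling or with an array left out, here and in the next paragraph. Leaving out H460 SP gave 2 higher and 2 lower, leaving out H460 MP gave 2 higher, and leaving out H1650 MP gave 10 higher. Of the H460 calls, MCM2 and SLBP held with each of the 8 arrays left out.

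H1650 had 5 members higher (MCM5, GINS1, ORC6, CDC6, POLD1) and 7 lower (MCM7, GINS3, GINS4, PCNA, POLA1, RRM1, UHRF1), against 25.1% and 25.9% of all genes. Of these, GINS4, MCM7 and RRM1 held with each array left out. The higher count was 9 without H1650 SP, 0 without H1650 MP and 12 without H1975 SP, and the lower count was 3 without H1650 SP and 4 without H1975 SP or either H460 array. H1975 had 3 higher (MCM2, GINS3, UHRF1) and 13 lower (MCM3, MCM5, GINS2, GINS4, ORC1, CDC6, RFC3, RFC4, POLD1, LIG1, RRM2, TYMS, SLBP), against 28.1% and 23.8% of all genes. CDC6, LIG1, POLD1, RFC3 and RRM2 held with each array left out. Over the 4 lines, 10 of the 52 calls did so, and the others were lost without at least 1 array. Without H1975 MP, which was the lowest of the 4 MP arrays for 23 of 35 members, 5 were called lower. The higher count was 0 without H1975 SP and 6 without H1650 MP. Both H1975 arrays lay below the other 6 for 7 members (15.4% of all genes) and above them for 2 (19.3% of all genes). In A549 both lay above the rest for 7 (12.7% of all genes) and below for 0 (11.1%). The median level of the members minus the gene mean was 0.17 (A549), 0.08 (H460), 0.03 (H1650) and -0.23 (H1975), with medians over all genes of 0.01, -0.02, -0.01 and 0.05. The fibroblast collagen gene COL1A1 spanned 8.85 to 13.002 and COL1A2 2.56 to 9.21, with the highest values in H1975, and CD14, on the leukocyte list, spanned 7.39 to 9.42 and was also highest in H1975. Their part in the H1975 levels was not tested. The 4 contrasts share arrays and are not independent of each other.

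**Figure D2:**
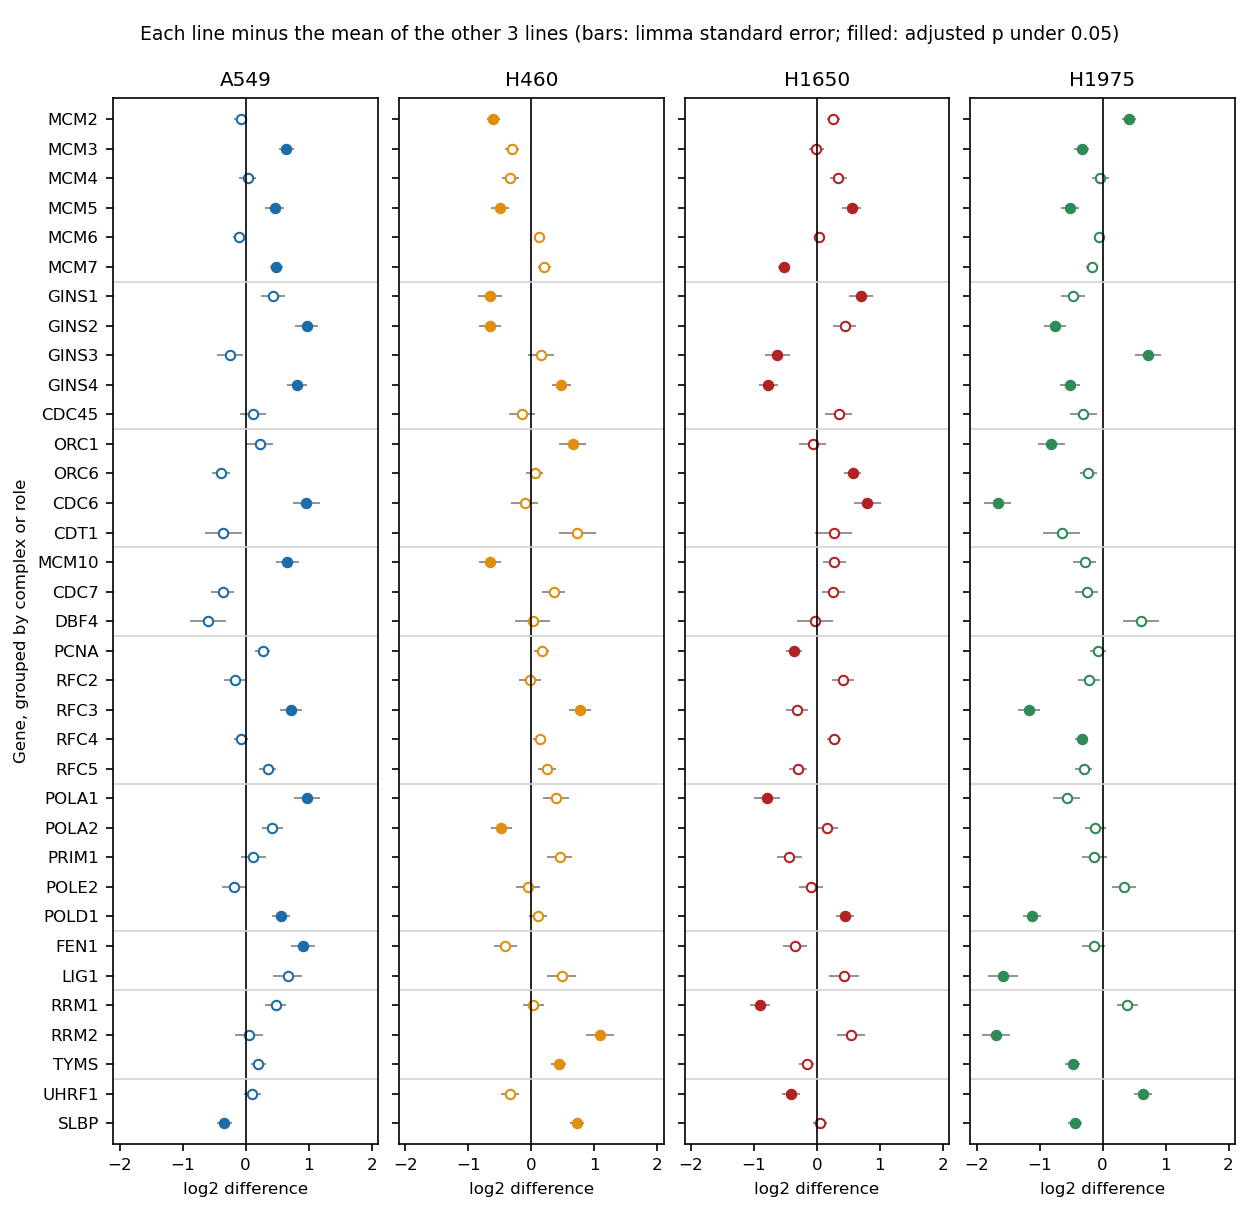
Difference in log2 level between each line and the mean of the other 3 lines (1 panel per line) for each of the 35 genes, with the limma standard error as bars; filled points have an adjusted p under 0.05. In the H1975 panel 13 of the filled points lie left of 0, with RRM2, CDC6 and LIG1 beyond -1.5.

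Within the lines, most replication genes were higher in SP than in MP cells of H1975 and lower in SP than in MP cells of H1650. With 1 array per population in each line there is no replicate, and these ratios have no error. In H1975, 34 of 35 members were higher in SP, with a median log2 ratio of 0.48, and 13 reached 1.5-fold, against 5.8% of all genes. These were RRM2 (0.88), PRIM1, LIG1, CDC6, MCM10, DBF4, CDC45, ORC1, POLA1, CDT1, RFC2, GINS2 and GINS1 (0.60), and 0 were 1.5-fold lower (7.38% of all genes). In H1650, 4 of 35 were higher in SP (MCM3, MCM5, GINS4, POLD1), the median was -0.24, and CDT1 (-0.86) and DBF4 (-0.73) were at least 1.5-fold lower, against 6.87% of all genes, with 0 higher (3.22%). In A549, 29 of 35 were higher in SP with a median of 0.18, and DBF4 alone reached 1.5-fold (9.56% of all genes), with 0 lower (4.61%). In H460, 22 of 35 were higher with a median of 0.03, DBF4 was 1.5-fold higher (6.75% of all genes) and FEN1 1.5-fold lower (4.29%). The second probe set of FEN1 gave a ratio of 0.14 in H460. Over all genes the median ratios were 0.004, -0.03, -0.01 and -0.04 in A549, H460, H1650 and H1975. Of the 12300 genes, 6212, 5533, 6003 and 5575 were higher in SP in these lines. Scaling to the same median shifted the ratio of all genes by -0.16 in A549 and 0.17 in H1975. Such scaling moves all genes of an array by the same amount, so the place of the members relative to all genes could not change. The medians were then 0.03 for the members and -0.15 for all genes in A549, and 0.65 and 0.13 in H1975. In A549 19 of 35 and not 29 were then above 0, and 22 reached 1.5-fold in H1975. With that scaling 35 of 35, POLD1 included, were above 0 in H1975, 19 in H460 and 6 in H1650. All genes above 0 or past 1.5-fold were not counted with that scaling, so these counts have no share beside them.

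**Figure D3:**
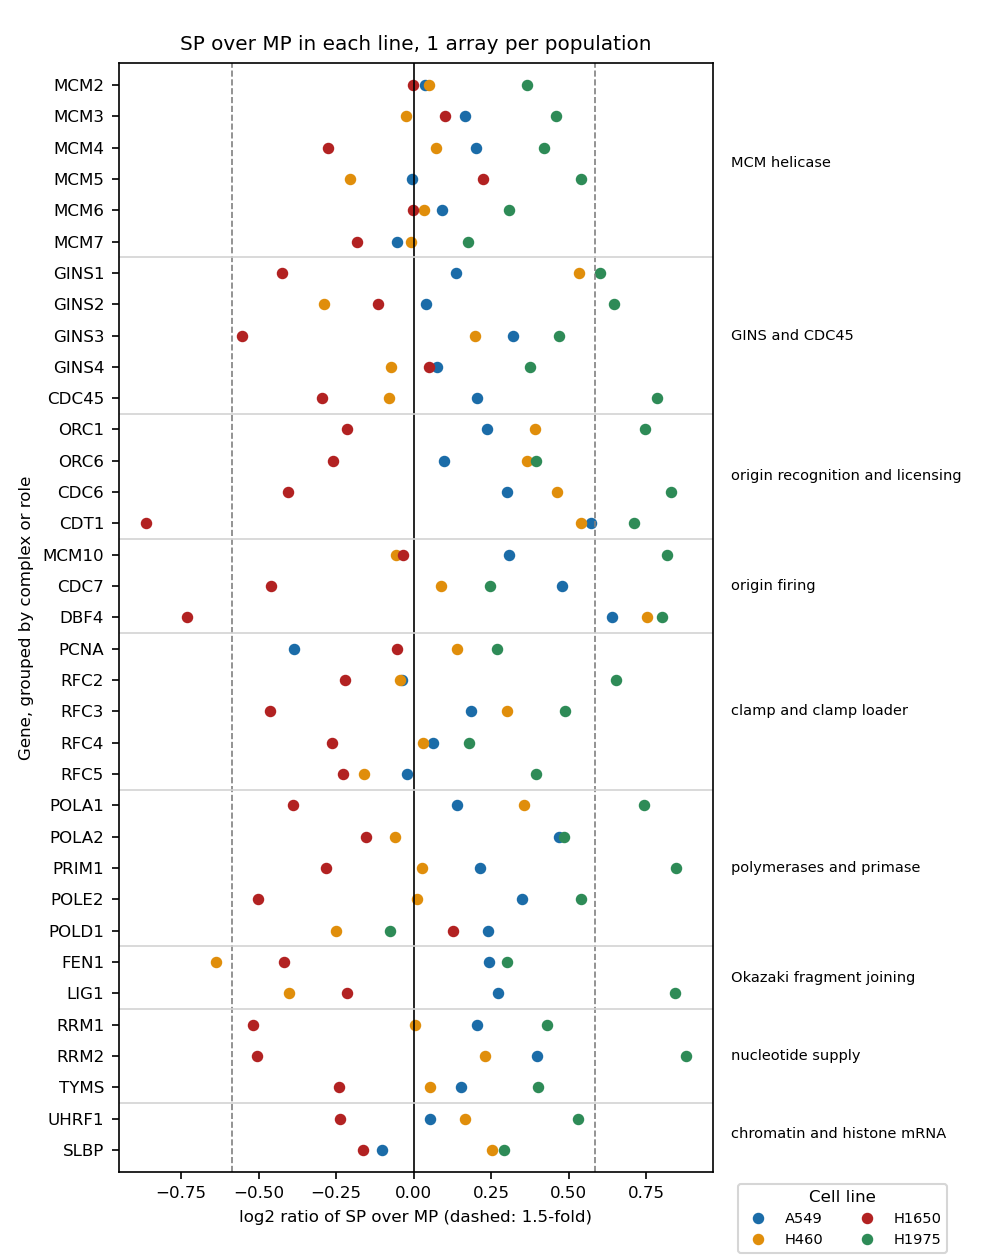
Log2 ratio of SP over MP for each of the 35 genes in each of the 4 lines (1 point per line, 1 array per population); dashed lines mark 1.5-fold. The H1975 points lie right of 0 for 34 genes and the H1650 points left of 0 for 31, and CDT1 and DBF4 have the 2 H1650 points beyond the left dashed line.

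Asked over all 4 lines with the line as a block, no member was called between SP and MP cells (limma, 0 of 35, 0% of 12300 genes, with 372 genes and 0 members at an unadjusted p under 0.05). The mean log2 differences ran from -0.13 for FEN1 to 0.37 for DBF4, with adjusted p from 0.945 to 0.999. For 31 members the mean was higher in SP (5581 of 12300 genes), but for 0 members did it exceed the SD between lines. No member had the same direction in all 4 lines, against 1200 of 12300 genes. The direction was higher in SP in A549, H460 and H1975 and lower in SP in H1650 for 20 members, against 1656 of 12300 genes. Without H1650, the line where ABCG2 was lower in the array labelled SP, 1 member was called, against 0.203% of all genes. It was DBF4 (0.73, SE 0.09, limma adjusted p = 0.0496, higher in SP in 3 of 3 lines), on 3 pairs and 1 probe set. H1650 had already been seen to run the other way when it was left out, so the p of DBF4 is no independent evidence. CDT1 (0.61, adjusted p = 0.106), CDC6 (0.53, adjusted p = 0.155) and RRM2 (0.50, adjusted p = 0.187) came next, and 12 of 35 members had an unadjusted p under 0.05, against 1663 of 12300 genes. PCNA and MCM7 differed by 0.01 and 0.04 without H1650, with limma adjusted p of 0.985 and 0.883. For MCM7 this rests on the probe set chosen. Its second set, almost as bright, had ratios of 0.03, 0.14 and 0.74 in A549, H460 and H1975.

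The SP over MP ratio of H1650 was then set against that of the other 3 lines in 1 fit, a contrast chosen because H1650 had been seen to run the other way. It was lower for 33 of 35 members, MCM5 and POLD1 excepted, with a median of -0.45, against 0.02 over all genes. DBF4 was called (-1.46, SE 0.19, limma adjusted p = 0.0454), 1 of 35 members against 0.333% of all genes, and 14 of 35 members had an unadjusted p under 0.05, against 1489 of 12300 genes. CDT1 differed by as much (-1.47, SE 0.23) but was not called (adjusted p = 0.0696), and RRM2 followed in size (-1.01, adjusted p = 0.181). The DBF4 call was lost without A549 or without H460 (0 members called), and also with quantile normalization, no filter or no trend, and 2 members were called without H1975. H1650 has 1 pair, and the fit takes its spread to equal that of the others. ABCG2 had ratios of SP over MP of 1.08, 0.36, -0.70 and 1.17 in A549, H460, H1650 and H1975, and its part in the members' ratios was not tested. The ACTB 3' minus 5' difference was 0.23 in SP and 0.26 in MP cells of H1650 and 0.36 in SP and 0.52 in MP cells of H1975, and its part was not tested either.

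A wider replication list of 47 other genes had 46 past the filter. It holds the remaining ORC, RPA and polymerase subunits, but also regulators such as E2F1, CCNE2, CDK2 and CDC25A, and the methyltransferase DNMT1. The median SP over MP ratio of this list was 0.19 in A549 (35 of 46 higher in SP), 0.05 in H460 (34 of 46), -0.22 in H1650 (6 of 46) and 0.26 in H1975 (41 of 46). Over the 4 lines 0 were called. In the contrast of H1650 with the rest 0 were called and 14 of 46 had an unadjusted p under 0.05, against 1489 of 12300 genes. Between lines, 30 of 46 passed the F test (76.3% of all genes). Of the 46, 6 were higher and 6 lower in A549 (22.4% and 21.3% of all genes) and 6 higher and 11 lower in H460 (24.2% and 26.8%). In H1650 12 were higher and 5 lower (25.1% and 25.9%), and in H1975 6 were higher and 16 lower (28.1% and 23.8%). TK1, the salvage kinase for thymidine, was higher in A549 (1.11) and H1650 (0.93) and lower in H460 (-0.83) and H1975 (-1.21). E2F1, the transcription factor, was higher in H1650 (1.38), as was cyclin E2 (CCNE2, 1.30). POLE4, a small subunit of polymerase epsilon, was higher in H1650 (1.06) and lower in H1975 (-0.97), and RFC1, the large loader subunit, was lower in A549 (-1.34). In H1975 the maintenance methyltransferase DNMT1 (0.92) and the ribonuclease subunit RNASEH2A (0.84) were higher.

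Genes of the next cell cycle stage showed wider ratios with the same signs. A list of 20 G2 and mitosis genes, which includes TOP2A, AURKB and CDK1 that the study had picked from these arrays and is not independent evidence of direction, had a median SP over MP ratio of 0.63 in A549 (20 of 20 higher in SP), 0.39 in H460 (18 of 20), -0.64 in H1650 (1 of 20) and 0.89 in H1975 (20 of 20). A list of 14 genes named for cell cycle exit, though it also holds the G1 cyclin CCND1, had 10 genes past the filter. CDKN2B, CCND2 and GAS1 fell below it. The 10 genes had medians of -0.30, -0.04, -0.11 and 0.04 in A549, H460, H1650 and H1975. The difference between these lists was not tested.

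**Figure D4:**
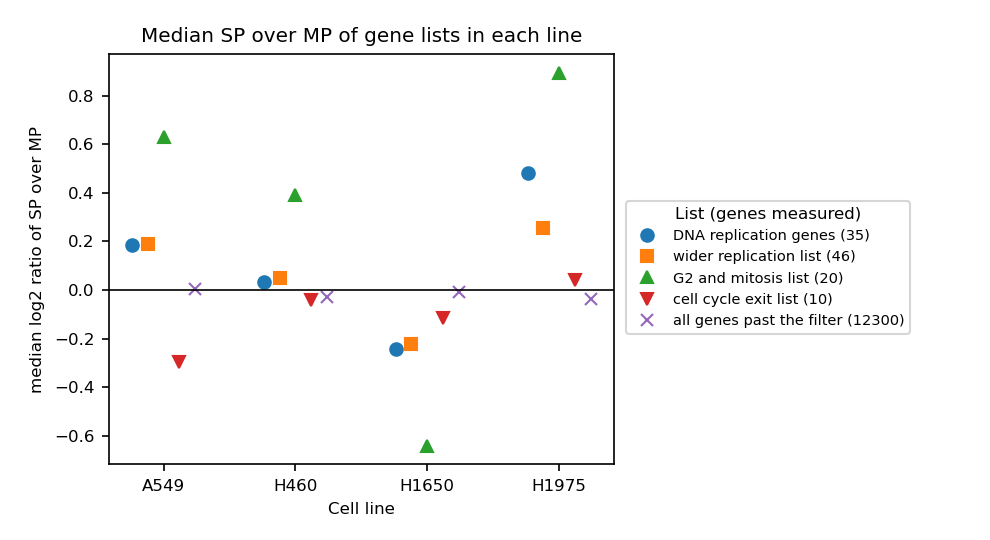
Median log2 ratio of SP over MP in each line for the 35 DNA replication genes, 46 genes of the wider replication list, 20 G2 and mitosis genes, 10 genes of the cell cycle exit list and all 12300 genes tested. The replication lists lie between all genes and the G2 and mitosis list in each line, on the negative side in H1650 and on the positive side in the other 3.

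The 35 genes had 64 probe sets, 17 genes with 1 and 18 with several, and the brightest stood for the gene. The second brightest set of those 18 genes gave the same sign of the SP over MP ratio for 15 (A549), 10 (H460), 14 (H1650) and 17 (H1975) genes. Over the 18 genes the ratios of the brightest and second sets correlated with r of 0.72, -0.01, 0.33 and 0.25 in these lines. The highest line was the same for 16 of 18 and the lowest for 11 of 18. For GINS2 and RFC5 the brightest set put A549 highest and the second set H1650. For CDC6 and RRM2 both sets put H1975 lowest. CDC6 had ratios of 0.22, 0.29, -0.43 and 0.96 on its second set in A549, H460, H1650 and H1975. CDT1 disagreed between sets. Its second set had ratios of 0.69 in A549 and 0.72 in H1975 but -0.34 in H460 and -0.07 in H1650, against -0.86 in H1650 on the brightest set. For FEN1 the ratio in H460 was -0.64 on the brightest set and 0.14 on the second. For MCM7 the ratio in H1975 was 0.18 on the brightest set and 0.74 on the second. GINS2 had a ratio in H1975 of 0.65 on the brightest set (mean log2 10.73) and -0.12 on the much dimmer second (6.85). DBF4 has 1 probe set, so its ratios rest on that set alone.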

How the data were processed

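Total RNA from sorted SP and MP cells of 4 lung cancer lines was hybridised as biotinylated cRNA, 1 array each. The authors deposited log2 MAS5 signals (GCOS 1.4 is named in the submitters' processing notes), whose linear values had a trimmed mean of 500.1 on each array, and which were not centred by gene. Detection calls were not used here. Of 54675 probe sets, 41091 with 1 gene symbol (62 controls left out) gave 19775 genes, each represented by its brightest probe set. The 12300 genes with a mean log2 signal of at least 6.01, the median over all probe sets, were fitted with limma 3.58.1 in R 4.3.3 (lmFit, eBayes with trend), with Benjamini-Hochberg adjusted p under 0.05 as threshold. SP was compared with MP with line as a block. The methods describe a 2-fold selection and no test. Lines were compared with population as a term. SP over MP within a line had no test and a 1.5-fold threshold. SP and MP of a line come from the same cell line, which pairs them.

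The members and lists were chosen with earlier results of these data known. Genes given on every array are those with the widest and narrowest spread between lines in each complex and those called in a contrast of SP with MP. CDT1 and POLD1 were added after their values were seen, and so were the other members given with single values. The fits were tested on simulated data. Alternatives were quantile normalization, equal medians, a linear floor (32) or pseudocount (16), other filters, the mean of all probe sets, no trend, no block, an adjusted p under 0.1, other folds, exchanged H1650 labels, and leaving out lines or arrays. Precision is limited by the 8 arrays.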

Additional observations from a re-analysis of the deposited data

Results flagged for a closer look

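Each member gives 3 sets of 4 values, the SP arrays, the MP arrays and the ratios of SP over MP. Of these 105 sets, 7 (6.67%) held a value set apart from the other 3 by Dixon's test, which chance does in about 1 in 20 sets. In H1650 the SP over MP log2 ratio of CDT1 was -0.86, against 0.54 to 0.71 in the other lines, and that of DBF4 was -0.73, against 0.64 to 0.80. MCM2 had a ratio of 0.36 in H1975 and between -0.001 and 0.05 elsewhere. Among the SP arrays, H460 was low for MCM4 (11.54, against 11.87 to 11.93) and high for CDC7 (10.09, against 9.71 to 9.74). Among the MP arrays, H1975 was low for POLD1 (8.88, against 9.89 to 9.99) and for LIG1 (8.01, against 9.98 to 10.18).

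The SP over MP ratio of DBF4 differed between H1650 and the other 3 lines by -1.46 (limma adjusted p = 0.0454). The contrast was chosen because H1650 had been seen to run the other way, and it holds 1 pair of H1650, so its p is no independent evidence. The call was lost without A549, without H460, and with quantile normalization, no filter or no trend (0 members called in each). MCM5 was flagged by the signs of its ratios alone, a rule not counted over all genes. Its SP over MP log2 ratio was 0.22 in H1650 and 0.54 in H1975, the EGFR mutant lines. In the K-Ras mutant lines it was -0.20 in H460 but -0.004, close to no difference, in A549. The mean ratios of the EGFR and K-Ras mutant lines differed by 0.48. That difference was not tested.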

How the results depend on the processing

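For SP against MP over 4 lines, the other alternatives kept 0 members called, the fit with no replicate block included. Leaving out H1650 gave 1 member and 25 genes, and leaving out 1 line gave 0 to 1 members and 0 to 25 genes. Exchanging the H1650 labels gave 2 members and 210 genes. For single lines against the others, leaving out 1 array gave 2 to 16 members higher and 0 to 6 lower in A549, 2 to 10 and 2 to 9 in H460, 0 to 12 and 3 to 10 in H1650, and 0 to 6 and 5 to 18 in H1975. Scaling to the same median gave 7 higher and 2 lower in A549, 13 and 0 in H460, and 3 higher in H1650. The lower count of A549 was 2 with the floor, the pseudocount or an adjusted p under 0.1, and 0 with no filter, the mean of all probe sets or no trend. Without the trend 4 were lower in H1650 and 3 in H460. An adjusted p under 0.1 gave 11 higher in H1650. Of the 52 calls of a member in a line, 9 held under each of 18 settings and 0 were reversed. The F test count kept within 1.5 times. For these line and F test counts, the share of all genes was not counted under the alternatives.

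At 1.2-fold, 10 members were higher and 1 lower in SP in A549, 8 and 3 in H460, 31 higher in H1975 and 16 lower in H1650, and at 2-fold 0 in each. Scaling to the same median gave 0 higher in A549 and 22 in H1975. The mean of all probe sets gave 3 higher in A549 and 2 higher and 0 lower in H460. The share of all genes was not counted at these folds or settings, so these counts have no share beside them. For H1650 against the other lines, 2 members were called with the pseudocount or an adjusted p under 0.1, and 0 with quantile normalization, no filter or no trend. Leaving out 1 of the other lines gave 0 to 2. The median level of the members in H460 was 0.0132 with quantile normalization and 0.26 with equal medians. The causes were not tested.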
